A study of Homo sapiens with 16 samples.

Results

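BCL11A is a protein-coding gene on chromosome 2 (NCBI Gene 53335), read from the minus strand. Its span in build hg19 is 60.684 to 60.781 Mb, and 6 bins of 20 kb overlap it, from 60.68 to 60.80 Mb. They are called bin 1 to bin 6 in order of coordinate, so that bin 6, at 60.78 to 60.80 Mb, holds the promoter end. These bins and their contacts within 59 to 62 Mb of chromosome 2, a window of 150 bins that were all present in every library, were taken from the 137198 bins of chromosomes 1 to 22 and X that were present in all libraries. The rule for the members was position alone, while the locus itself was picked with earlier results of these data known. Since the gene ends at 60.781 Mb, most of bin 6 is sequence beyond its promoter end. Values of bin 6, called the promoter bin below, mainly describe that flank.

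The study measured chromatin contacts by Hi-C, in which fixed chromatin is cut with a restriction enzyme, ends that lie close together are joined, and joined pairs are sequenced. K562 cells, an established human leukaemia line that carries the BCR-ABL1 fusion, were digested with HindIII, which cuts at AAGCTT, for 0.25, 1, 3 or 12 h. Each time had 2 replicate libraries, sequenced first at low and then at higher depth, and the second sequencing was used here unless stated. All groups share the cell line, the fixation in formaldehyde and the enzyme; no group was left undigested, and nothing in the labels says that replicates came from separate cultures, so every p-value measures only the spread between these libraries.

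BCL11A encodes a zinc-finger repressor of transcription. In adult red cell precursors it silences the fetal gamma-globin genes, and its expression there depends on an enhancer inside its second intron. K562 cells have erythroid features and produce embryonic and fetal globins.

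The libraries of the second sequencing held 62777251 to 176412222 contacts, the fewest in 0.25 h replicate 2 and the most in 12 h replicate 1. Depth rose with digestion time, from 114338328 and 62777251 contacts at 0.25 h to 176412222 and 153465906 at 12 h. The block of contacts between the BCR side of chromosome 22 and the ABL1 side of chromosome 9, a defining junction of K562, ranked 1 among all blocks between those chromosomes in 8 of 8 libraries, with 3632 to 18953 contacts. Contacts were amplified without molecular identifiers and may repeat a molecule, so intervals cover counting error only.

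Because every contact in these maps begins at a HindIII cut, the promoter of BCL11A was read for that site. RefSeq lists 5 promoter entries for the gene, each of 300 bases, and 0 of 5 held AAGCTT, a sequence that reads the same on both strands. Of all 35116 entries, 5.84% held it. The 250 bases upstream of one of these starts (GRCh38.p14, chromosome 2, 60553655 to 60553904, minus strand, in a build other than that of the maps) are shown as the entry with the most CG pairs, with each CG in capitals.
BCL11A promoter: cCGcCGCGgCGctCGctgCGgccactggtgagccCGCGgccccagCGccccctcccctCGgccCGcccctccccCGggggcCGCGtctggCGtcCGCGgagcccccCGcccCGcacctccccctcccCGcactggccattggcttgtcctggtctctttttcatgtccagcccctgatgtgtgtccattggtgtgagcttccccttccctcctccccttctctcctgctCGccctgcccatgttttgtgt
This stretch held 21 CG pairs and was 72.0% G and C, against a median of 11 CG pairs and 58.0% over the same 250 bases of all entries. It was the richest of the gene's 5 entries in both measures. The other 4 held 19, 15, 9 and 5 CG pairs with 64.8%, 58.4%, 51.2% and 53.2% G and C, so the last 2 lay below both medians. These letters say nothing about cut sites elsewhere in the 20 kb bins, which were not counted here. The end coordinates of the 5 entries ran from 60528785 to 60554174 in GRCh38.p14. That is wider than a bin of 20 kb, so bin 6 cannot hold all of them.

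Contacts of BCL11A dropped at a wall that lay 120 kb beyond the promoter end of the gene. Contacts of the gene reached far to the lower coordinates, 1.72 ± 0.0760 times the level expected for their distance over 59 to 60.40 Mb, and dropped to 0.464 ± 0.0378 over 60.92 to 61.40 Mb (mean ± SD of 8 libraries). Over 59 to 60.40 Mb the libraries had 1.69 and 1.61 at 0.25 h, 1.69 and 1.79 at 1 h, 1.69 and 1.67 at 3 h, with 1.79 and 1.83 at 12 h. Over 60.92 to 61.40 Mb they had 0.451 and 0.390 at 0.25 h, 0.468 and 0.491 at 1 h, 0.451 and 0.503 at 3 h, with 0.506 and 0.450 at 12 h. Every value of the first stretch was above every value of the second. Over the first the 12 h libraries were among the highest and both lay above the 0.25 h libraries, and over the second the times overlapped. Observed over expected here is the deposited balanced signal of a bin pair divided by the mean of its library at that distance, so that 1 means an average pair of bins. Close to the gene the sides differed less, with 1.13 ± 0.0332 over 60.42 to 60.68 Mb and 0.885 ± 0.0598 over 60.80 to 60.90 Mb. Bin 1 alone had 0.953 and 0.961 there. The far lower side was uneven. Over 59.08 to 59.28 Mb it had 2.26, 2.64, 2.17 and 2.82 at 0.25, 1, 3 and 12 h (means of 2 libraries). Over 59.68 to 59.88 Mb it had 0.961, 1.22, 1.16 and 1.28. There the libraries had 1.05 and 0.869 at 0.25 h, with 1.09 and 1.47 at 12 h. In neither stretch did the means follow the order of times.

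The insulation score, the log2 of the mean signal that crosses a bin within 200 kb relative to the chromosome mean, marks such walls by low values. With all libraries added it fell along the gene from 0.21 in bin 1 to 0.17, 0.12, -0.01, -0.16 and -0.31 in bins 2 to 6. It went on falling to -0.98 at 60.90 to 60.92 Mb, where the local minimum had a prominence of 1.34, the largest of the 6 minima found in the window. In the single libraries the score there was -0.93 and -1.02 at 0.25 h, -1.05 and -0.98 at 1 h, -0.86 and -0.99 at 3 h, with -1.01 and -1.03 at 12 h. Times overlapped, and limma gave a difference between 0.25 and 12 h of 0.05 (SE 0.070, adjusted p = 0.886).

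On the other side of the gene the nearest minimum was shallow. It lay at 60.40 to 60.42 Mb, 280 kb from the gene, with a score of -0.19 and a prominence of 0.217 just past the minimum of 0.2. With a 100 kb window the nearest minimum on that side lay 180 kb away, and with a 400 kb window 1440 kb away, whereas the minimum beyond the promoter end lay at 140 and 120 kb.

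**Figure D1:**
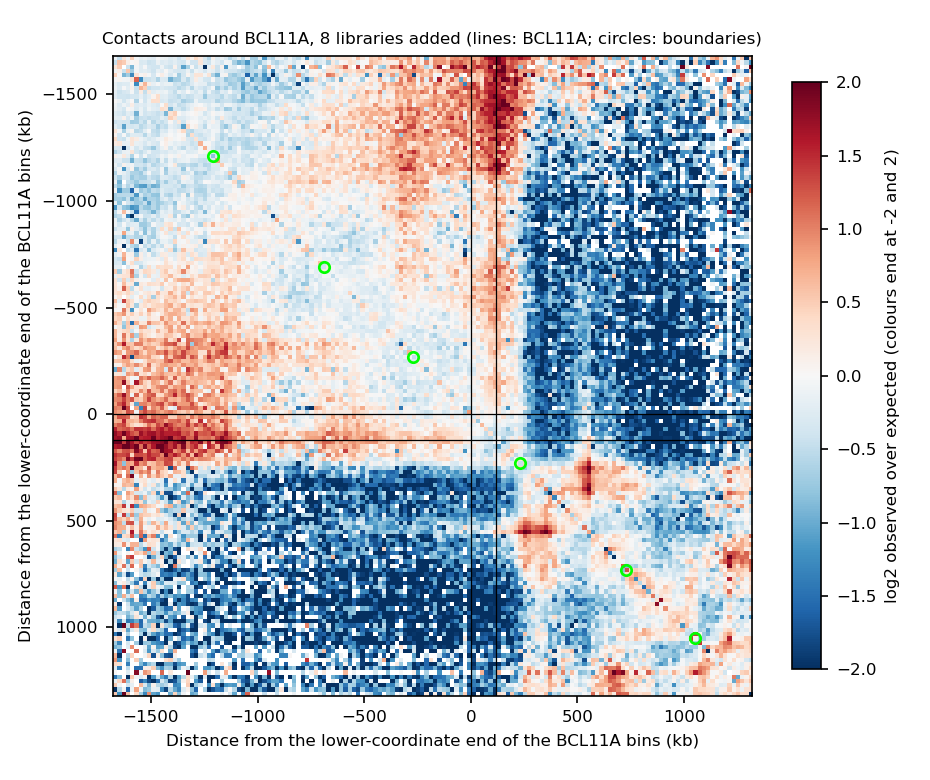
Contacts among the 150 bins of 20 kb around BCL11A, 8 libraries added, as log2 observed over expected; both axes give distance in kb from the lower-coordinate end of the BCL11A bins, black lines bound the gene, and green circles mark the 6 insulation minima. The blue field to the right of the gene is the low contact beyond the minimum at 120 kb from bin 6. The red block at the far left is the high contact of bins 5 and 6 with 59 to 59.46 Mb. It continued beyond the gene to 60.90 Mb and was highest at 60.80 to 60.82 Mb, at 3.18.

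The drop across this wall was steep. The mean observed over expected of the 6 gene bins with single partner bins, libraries added, was 0.95 at 60.88 to 60.90 Mb, 0.88 at 60.90 to 60.92 Mb, 0.65 at 60.92 to 60.94 Mb and 0.33 at 60.98 to 61.00 Mb. Between the gene and the wall, over 60.80 to 60.90 Mb, it was 0.885 ± 0.0598 (SD, n = 8 libraries). From 61.42 to 62 Mb it was 0.303 ± 0.0507. A local peak of 0.970 stood at 61.22 to 61.24 Mb, chosen after its value was seen, where the neighbouring bins had 0.757 and 0.493. By time that bin had 0.826 at 0.25 h, 1.14 at 1 h, 0.963 at 3 h, with 0.960 at 12 h, against 0.545, 0.613, 0.591 and 0.993 in the bin below it and 0.571, 0.400, 0.499 and 0.468 in the bin above it. It stood above both neighbours at 0.25, 1 and 3 h, and at 12 h the bin below it was higher. In the RefSeq order of GRCh38.p14 the genes that follow BCL11A on that side are PAPOLG, which encodes a poly(A) polymerase, REL-DT, REL, which encodes a subunit of NF-kappa-B, PUS10, which encodes a pseudouridine synthase, and PEX13, which encodes a peroxisomal import protein. On the lower side the order is LOC124906010, LOC102724142, MIR4432 and MIR4432HG. None of them was placed in a bin, because that annotation is of another build.

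The side ratio summed this up in 1 number per library, the log2 of the balanced signal with the 600 kb above the gene over that with the 600 kb below it. It was -0.83 and -0.93 at 0.25 h, -0.84 and -0.77 at 1 h, -0.85 and -0.86 at 3 h, with -0.79 and -0.76 at 12 h. All 8 libraries favoured the lower side. The 12 h values were among the least negative, but the trend with log2 hours was not past the threshold (Spearman's rho 0.44, exact two-sided permutation p = 0.30, adjusted p = 0.480 over 8 trends, n = 8 libraries).

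**Figure D2:**
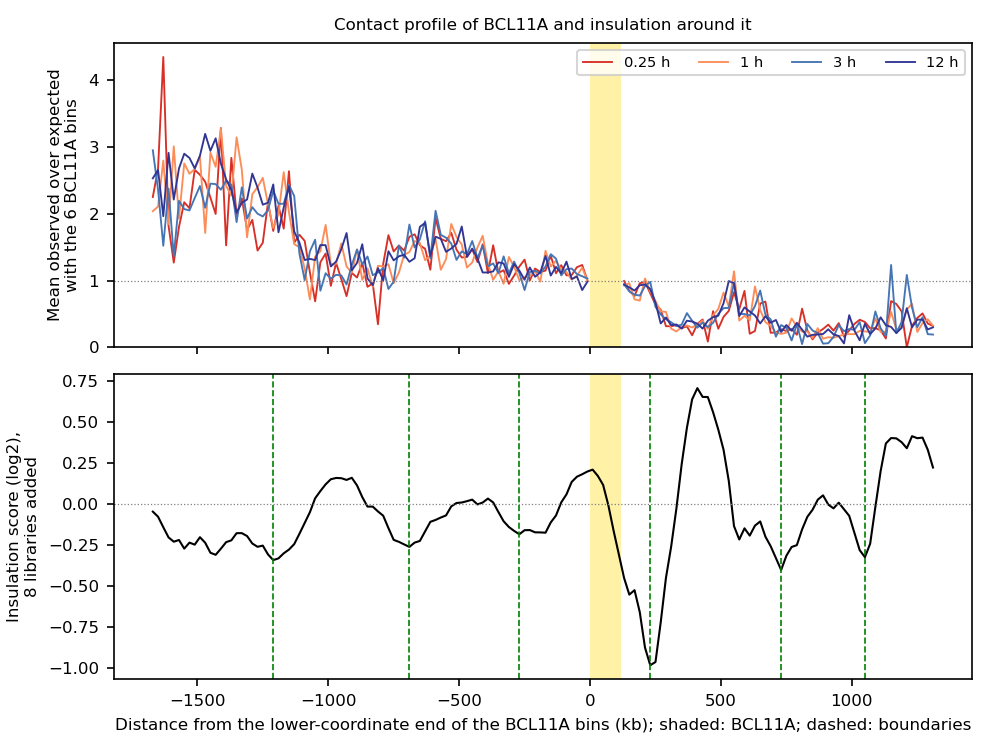
Upper panel: mean observed over expected of the 6 BCL11A bins with each 20 kb bin of the window, 1 line per digestion time (mean of 2 libraries); lower panel: insulation score (log2) with 8 libraries added; the x axis gives distance in kb from the lower-coordinate end of the gene's bins, which are shaded, and dashed lines mark minima. The 4 lines run together, high on the left and low on the right of the minimum of -0.98.

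Far to the lower side, the bins at the promoter end of BCL11A had more contact than those at its other end. With the first stretch of the window, 59 to 59.46 Mb, which ends at the farthest minimum, bins 1 to 6 had a mean observed over expected of 1.90, 2.05, 2.07, 2.38, 2.80 and 2.94 over 8 libraries. Bin 6 ranged from 2.26 to 3.47 and bin 1 from 1.18 to 2.69 between libraries. Bin 6 was above bin 1 in 7 of 8 libraries. The high level did not end with the gene, since it was 3.18 at 60.80 to 60.82 Mb, 2.98 at 60.82 to 60.84 Mb and 2.39 at 60.88 to 60.90 Mb, before 1.69 at the wall itself. On the higher side, over 61.42 to 62 Mb, bins 1 to 6 had 0.265, 0.272, 0.346, 0.305, 0.342 and 0.289, with no rise toward the promoter end. Over 60.92 to 61.40 Mb bin 6 had 0.577 and the others 0.416 to 0.456. The stretch of 59 to 59.46 Mb was picked from the map after it was seen, so no test is given.

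The 5 bin pairs with the highest mean log2 observed over expected, among pairs of a gene bin with a bin at least 100 kb away outside the gene, all joined bin 6 or bin 5 with the lower side. Bin 6 with 59.26 to 59.28 Mb led, at 4.97 ± 1.95 (SD, n = 8 libraries). Its values were 4.52 and 4.43 at 0.25 h, 8.37 and 7.12 at 1 h, 2.31 and 5.40 at 3 h, with 3.67 and 3.95 at 12 h. Both 1 h libraries were the highest, on 15 and 8 contacts. Both 0.25 h libraries lay above both 12 h libraries, and the 3 h libraries spanned the other 2 times. The next were bin 6 with 59.18 to 59.20 Mb at 4.20 ± 2.28, with 59.38 to 59.40 Mb at 3.55 ± 1.17 and with 59.50 to 59.52 Mb at 3.55 ± 1.18, and bin 5 with 59.22 to 59.24 Mb at 3.41 ± 0.861. They rest on 5.38 to 8.38 contacts a library on average. A pair this far apart reached the minimum of 5 contacts only where its signal was high, so these values are a description of the pairs that passed. None of the 5 passed the threshold between 0.25 and 12 h (limma, lowest adjusted p = 0.948).

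Of 864 possible pairs of a gene bin with another bin of the window, 285 passed the filter, 228 of 504 on the lower side and 57 of 360 on the higher side, and all 10 pairs inside the gene that are at least 40 kb apart passed. Between 0.25 and 12 h limma called 0 of the 285, where it called 0% of 2530431 pairs over the genome. At an unadjusted p under 0.05 there were 22 of the 285, or 7.72%, against 5.18% of all pairs (131132), and 0 of the 10 inside the gene. The median difference was -0.03 for the gene's pairs and 0.01 for all pairs (log2, 0.25 h minus 12 h). With a median SE of 0.431 per pair, small changes of single pairs were not detectable at this depth.

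The bins over the gene, bin 6 included, did not on average contact one another more than average chromatin. Mean observed over expected among different bins of the gene was 0.895 and 0.886 at 0.25 h, 0.973 and 0.938 at 1 h, 0.853 and 0.884 at 3 h, with 0.918 and 0.911 at 12 h. The 1 h libraries were highest and the 3 h libraries lowest, and there was no order with time (rho 0.00, exact permutation p = 1.00, n = 8). Among neighbouring bins, contact was 1.22 ± 0.136 between bins 1 and 2, 0.991 ± 0.0857 between bins 2 and 3, 0.942 ± 0.0521 between bins 3 and 4, 0.715 ± 0.0688 between bins 4 and 5 and 0.660 ± 0.0448 between bins 5 and 6 (SD, n = 8 libraries). It was lower toward the promoter end, over the same bins in which the insulation score fell, with the values of bins 2 to 3 and 3 to 4 within the spread between libraries.

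The erythroid enhancer in the second intron was taken to lie in bins 2 and 3. This placement comes from general knowledge of the gene and was not checked against an annotation of hg19. Contact of the promoter bin with these bins was 0.841 and 0.971 at 0.25 h, 0.845 and 0.864 at 1 h, 0.807 and 0.742 at 3 h, with 0.742 and 0.810 at 12 h. All values were below 1, and the 3 h and 12 h libraries lay below those of 0.25 and 1 h. The trend was not past the threshold after adjustment (rho -0.73, exact permutation p = 0.0548, adjusted p = 0.219; Pearson's r -0.76, exact permutation p = 0.0278, n = 8). Without the 0.25 h libraries rho was -0.60 and without the 12 h libraries -0.72. Without balancing it was -0.39. Single libraries held 9 to 24 contacts between bins 2 and 6 and 13 to 46 between bins 3 and 6, and contacts of the enhancer itself were not resolved in 20 kb bins.

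Contacts inside the gene's own 20 kb bins lost share as digestion went on. Contacts of the 6 bins were summed bin by bin, so that a contact between different gene bins counted in both. Of these, 9.44% and 11.6% lay inside a bin at 0.25 h, and 8.82% and 8.64% at 1 h. At 3 h it was 8.15% and 8.53%, and at 12 h 4.93% and 4.85%. The 95% binomial (Wilson) interval of single libraries was at most 0.831 percentage points to each side. Both 12 h libraries lay below all others, both 0.25 h libraries above all others, and the order of times held without overlap. The rank correlation with log2 hours, Spearman's rho, was -0.98 (exact permutation p = 0.000794, the smallest that 2520 arrangements can give, adjusted p = 0.00635 over 8 trends, n = 8), and Pearson's r was -0.92. The median bin of the genome fell likewise, from 7.32% and 7.81% at 0.25 h to 4.27% and 4.20% at 12 h. Of the gene's bins, 3, 4 and 5 lay above the median bin in their mean self-contact ratio, at percentiles 80.7, 68.5 and 74.4 of all bins, and bins 1, 2 and 6 lay below it, at 42.1, 23.9 and 46.7. In the first sequencing, with 50 kb bins, rho was -0.78 (adjusted p = 0.219), and with only the bins that lie wholly inside the gene it was -0.88 (adjusted p = 0.0825). Without the 0.25 h or the 12 h libraries it was -0.96, where the smallest p that 90 arrangements can give, 0.0222, cannot pass the adjustment (adjusted p = 0.178). Depth rose with time too. With all libraries thinned at random to 62777251 contacts, rho was -0.98 (exact permutation, adjusted p = 0.00635, n = 8) and Pearson's r -0.93. Thinning evens out counting error and leaves the expected share as it was, so this value bears on no other difference that came with depth.

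**Figure D3:**
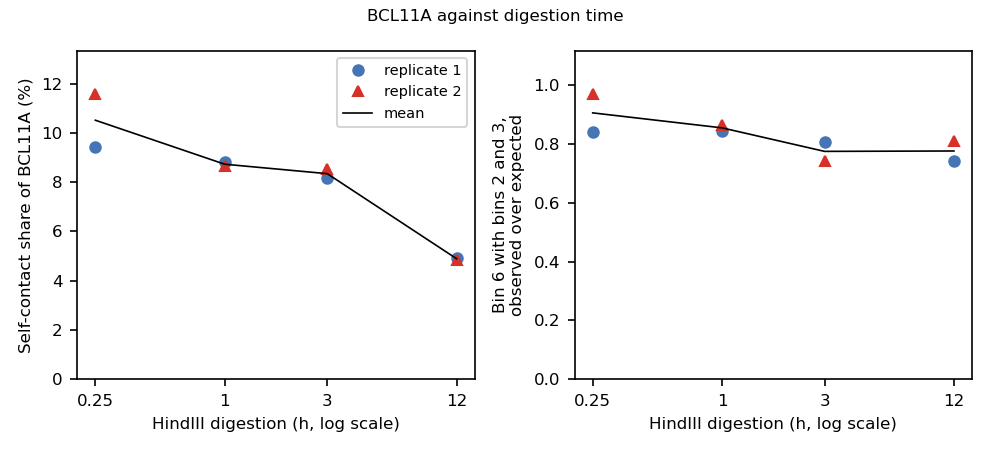
Left: contacts inside a 20 kb bin as a percentage of all contacts of the BCL11A bins, summed bin by bin. Right: observed over expected between the promoter bin (bin 6) and bins 2 and 3. Both are set against hours of HindIII digestion on a log scale, with 1 point per library and a line through the means of 2 libraries. The left panel falls from 9.44% and 11.6% to 4.93% and 4.85%, and the right panel lies between 0.742 and 0.971.

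Bin by bin, limma called the self-contact ratio, the log2 of contacts inside a bin over its other contacts, higher at 0.25 h than at 12 h in 5 of 6 gene bins, where 64.9% of 137197 bins were called and 64.7% were called higher. In bin 1, the end of the gene far from the promoter, the self-contact share was 7.91% and 11.5% at 0.25 h, 5.70% and 6.00% at 1 h, 5.44% and 4.80% at 3 h, with 2.22% and 2.48% at 12 h. Both 0.25 h libraries were highest and both 12 h libraries lowest. The ratio of bin 1 was higher at 0.25 h by 2.13 (log2, adjusted p = 4.3e-05), which lay at percentile 95.1 of all bins, whose median difference was 0.82. Bin 6, the promoter bin, is mostly sequence beyond the gene. It had 6.32% and 11.1% at 0.25 h, 7.10% and 6.85% at 1 h, 5.85% and 5.49% at 3 h, with 3.28% and 3.16% at 12 h. There the 0.25 h libraries spanned both 1 h libraries, and 12 h was below every other library. Its difference was 1.46 (adjusted p = 0.000605).

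Bin 3 had self-contact shares of 13.9% and 18.5% at 0.25 h, 12.3% and 12.9% at 1 h, 10.5% and 14% at 3 h, with 6.75% and 6.72% at 12 h. These were the highest of the 6 bins in 5 of 8 libraries, while bin 5 was above bin 3 in 3 h replicate 1 and in both 12 h libraries. The 12 h libraries of bin 3 lay below all its others. Its difference was 1.41 (adjusted p = 0.000146), and those of bins 4 and 5 were 0.87 (adjusted p = 0.000528) and 0.82 (adjusted p = 0.000245), near the median of all bins. Bin 2 had the smallest share, 3.72% and 2.17% at 0.25 h, 3.13% and 2.67% at 1 h, 3.54% and 3.65% at 3 h, with 1.97% and 2.04% at 12 h, on 14 to 56 contacts. Its difference of 0.53 was not past the threshold (adjusted p = 0.140); without 0.25 h replicate 2, which leaves 1 library at that time and takes the spread from the others, it was 0.91 (adjusted p = 0.0212). Whether the bins differ in their number of cut sites was not tested.

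Between 3 and 12 h the ratio was called in 6 of 6 gene bins, higher at 3 h by 0.64 in bin 5 to 1.16 in bin 1, where 56.9% of all bins were called. Bin 2 was among them (0.86, adjusted p = 0.0319). Without any single 3 h or 12 h library the calls of bins 2 and 6 were lost and 4 of 6 were left, with 38% to 41.1% of all bins called. From 0.25 to 1 h and from 1 to 3 h limma called 0 of 6 gene bins and 0 of 137197 bins, with 27154 and 4676 of all bins at an unadjusted p under 0.05. The first step depended on 1 library. Without 0.25 h replicate 1, which leaves a single 0.25 h library, the shallowest, that is assumed to vary like those of the other times, limma called 43828 bins (31.9%) between 0.25 and 1 h and 3 of 6 gene bins, with log2 differences of 1.06 in bin 1 (adjusted p = 0.00297), 0.65 in bin 3 (adjusted p = 0.0115) and 0.74 in bin 6 (adjusted p = 0.00836). With all libraries bin 1 had 0.76 (unadjusted p = 0.00641, adjusted p = 0.208). Without any other single library 0 bins were called in this step.

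**Figure D4:**
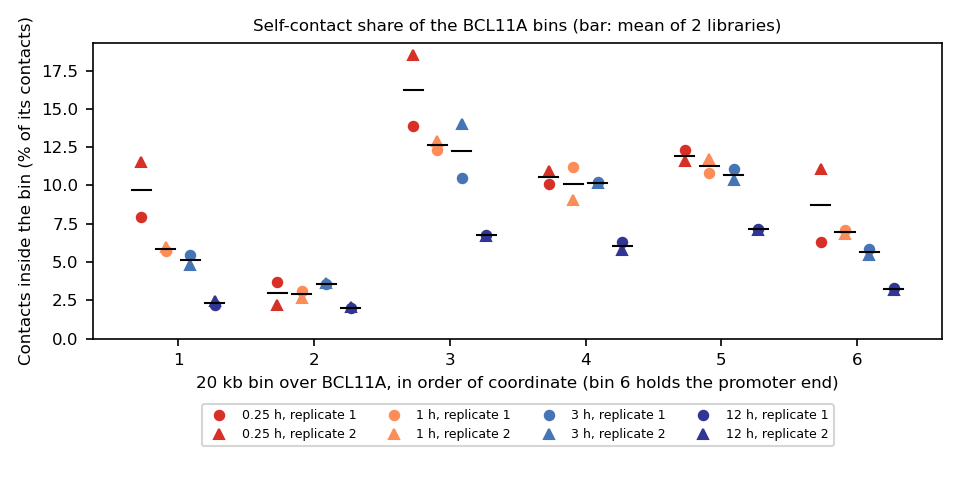
Percentage of contacts that lie inside each 20 kb bin over BCL11A, by bin in order of coordinate (bin 6 holds the promoter end); circles are replicate 1, triangles replicate 2, colours the digestion time, and bars the mean of 2 libraries. In each of the 6 bins the 12 h libraries are the lowest, from 1.97% in bin 2 to 7.15% in bin 5.

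Coverage, the contacts of the gene with all other bins scaled per 1000000 such contacts of the library (CPM), rose little. The 6 bins together had 103 and 106 CPM at 0.25 h, 103 and 105 at 1 h, 105 and 105 at 3 h, with 108 and 108 at 12 h. The 12 h libraries were above all others, and the trend was not past the threshold (rho 0.59, exact permutation p = 0.153, adjusted p = 0.306, n = 8). Without the 12 h libraries rho was 0.00, and without the 0.25 h libraries 0.84 (adjusted p = 0.267).

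Between 0.25 and 12 h, limma called coverage in 1 of 6 gene bins, where 55.8% of 137197 bins were called, 28639 higher and 47980 (35%) lower at 0.25 h. With factors by the trimmed mean of M values (TMM), which shift the median of all bins by under 0.1, the split was 38704 higher and 37834 lower. The called bin was bin 3, with 16 and 18 CPM at 0.25 h, 17.4 and 17.3 at 1 h, 17.1 and 18.1 at 3 h, with 19.4 and 20.8 at 12 h. Both 12 h libraries were above the other 6. It was lower at 0.25 h by 0.24 (log2 difference -0.24, SE 0.051, adjusted p = 0.000306), at percentile 20.4 of all bins, and lower at 3 h than at 12 h (log2 difference -0.19, adjusted p = 0.00533; 38.5% of all bins called). The call between 3 and 12 h was lost without 3 h replicate 1 (log2 difference -0.15, adjusted p = 0.102; 28223 bins called) and without 12 h replicate 2 (log2 difference -0.14, adjusted p = 0.118; 24633 bins called, against 52803 with all libraries). Counted from contacts with other chromosomes alone, bin 3 was not called (log2 difference -0.13, adjusted p = 0.552), in a fit that called 6.24% of all bins.

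The promoter bin leaned the other way, with 19.4 and 18.2 CPM at 0.25 h, 19.2 and 18.8 at 1 h, 19.4 and 18.7 at 3 h, with 17.6 and 17.8 at 12 h. Here both 12 h libraries were the lowest. The log2 difference of 0.08 was not past the threshold (adjusted p = 0.101), but was called with TMM factors (0.13, adjusted p = 0.0123), with median-of-ratios size factors (0.13, adjusted p = 0.0129) and without 0.25 h replicate 2 (0.13, adjusted p = 0.0199). Bins 1, 2, 4 and 5 had log2 differences of 0.01, -0.09, -0.09 and 0.02 with adjusted p of 0.801, 0.130, 0.131 and 0.724. Leaving out 0.25 h replicate 2, the shallowest library, raised the called gene bins from 1 to 4, while 52.3% of all bins were called, against 55.8% with all libraries. With contacts inside a bin included 3 gene bins were called beside 61.1% of all bins, with cis contacts alone 2 beside 55.7%, and with trans contacts alone 0 beside 6.24%. Bin 5 had the most contacts, 20.8 to 21.8 CPM in single libraries, and bin 2 the fewest, 12.3 to 13.8, against a median bin of 12.7 to 13.2.

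**Figure D5:**
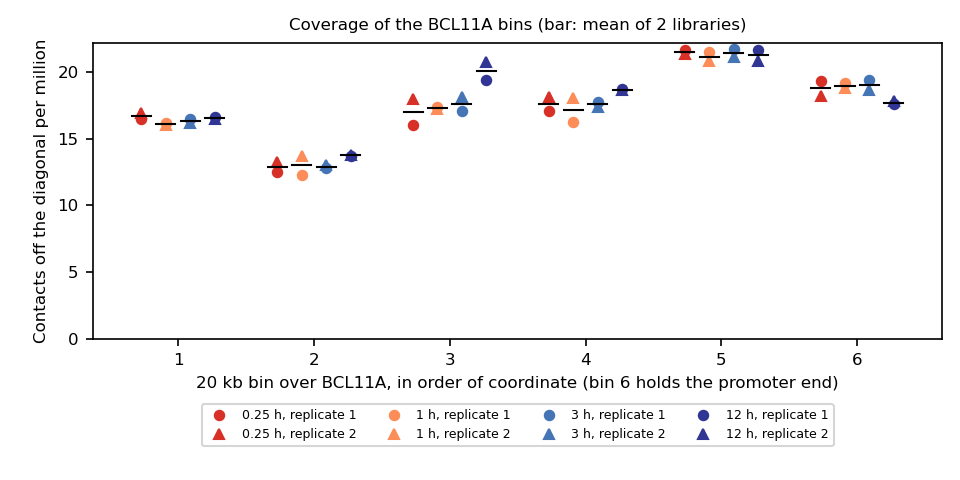
Contacts with other bins (CPM) for each 20 kb bin over BCL11A, by bin in order of coordinate; circles are replicate 1, triangles replicate 2, colours the digestion time, and bars the mean of 2 libraries. In bin 3 the 12 h libraries, at 19.4 and 20.8, lie above the rest, and in bin 6, at 17.6 and 17.8, below.

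Where the gene's contacts went changed little. Contacts with chromosome 2 made up 90.7% and 89.7% of its contacts off the diagonal at 0.25 h, 90.7% and 90.5% at 1 h, 90.7% and 90.5% at 3 h, with 90.4% and 90.6% at 12 h. The lowest was 0.25 h replicate 2, the other libraries differed by less than their counting intervals, and the trend was not past the threshold (rho -0.10, exact permutation p = 0.861, n = 8). The share of the 6 bins pooled was above that of the median bin, 86.9% to 88.0%, in 8 of 8 libraries. Of these cis contacts, 64.2% to 64.7% at 0.25 h and 65.3% to 66.4% at 12 h stayed within the window, and that trend was not past the threshold either (rho 0.63, exact permutation p = 0.110, adjusted p = 0.294). Counted in a span of like width centred on each bin, single gene bins kept 59.3% to 68.0% of their cis contacts. The median bin of the genome kept more, 69.6% to 71.6%.

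Insulation over the gene did not change detectably with digestion. Its mean over the 6 bins was 0.00 and 0.03 at 0.25 h, -0.03 and 0.11 at 1 h, 0.01 and -0.05 at 3 h, with -0.02 and 0.01 at 12 h. Among replicates of the same time the largest gap was at 1 h, and rho with log2 hours came to -0.29 (exact permutation p = 0.513, adjusted p = 0.685, n = 8). Limma called 0 of 6 gene bins and 0% of 135198 bins between 0.25 and 12 h, with 0 gene bins and 10682 bins (7.9%) at an unadjusted p under 0.05. Computed on contacts without balancing, 60233 bins or 44.6% were called and 5 of 6 gene bins with them, all lower at 0.25 h, by 0.14 in bin 1 (log2 difference -0.14, adjusted p = 0.0375) to 0.23 in bin 6 (log2 difference -0.23, adjusted p = 0.00658).

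Among bins of the window at least 100 kb from the gene, those most like BCL11A in their contacts lay on its lower side. The profile of log2 observed over expected along the window, with all libraries added and bins within 100 kb of either left out, was set against the mean profile of the gene. The highest correlations were 0.908 at 60.44 to 60.46 Mb, 0.905 at 60.28 to 60.30 Mb, 0.896 at 60.38 to 60.40 Mb, 0.893 at 60.56 to 60.58 Mb and 0.892 at 60.52 to 60.54 Mb, over 117 to 125 bins each. Bins closer to the gene than 100 kb were not scored. Between the gene and the wall only 60.88 to 60.90 Mb was, with a correlation of 0.860 at rank 16, so the sides were not compared alike. Neighbouring bins share libraries and domains, so these values describe the map and carry no p. Outside chromosome 2 the gene gave 4.09% ± 0.705 of its contacts to chromosomes 17, 19 and 22, which are rich in genes, against 3.91% ± 0.138 for the window below the gene, 5.99% ± 0.410 for the window beyond the wall and 4.99% ± 0.126 for chromosome 2 as a whole (SD, n = 8 libraries). These chromosomes were chosen with earlier results known. The gene was below the value of the window beyond the wall in 7 of 8 libraries, each time with its whole 95% Wilson interval. The intervals of the gene and of that window still overlapped in 0.25 h replicate 2 and both 1 h libraries. In 0.25 h replicate 2 they were 2.06% to 5.19% and 4.78% to 6.19%. They lay apart in the 3 h and 12 h libraries. At 0.25, 1, 3 and 12 h the window beyond the wall had 5.51%, 5.88%, 6.04% and 6.51% (means of 2 libraries). Chromosome 2 as a whole had 4.88%, 4.93%, 4.98% and 5.19%. The gene had 4.45%, 3.92%, 3.81% and 4.19%, so the window beyond the wall rose with time and the gene did not. Depth rose with time as well. The gene was below the value of chromosome 2 as a whole in 7 of 8, but with its whole interval in 2. It was below the window on its own side in 3 of 8, on 518 to 1609 contacts with other chromosomes a library.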

How the data were processed

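Hi-C contact maps of K562 cells came as 16 deposited tables, 8 libraries sequenced 2 times, each listing pairs of bins with a balanced signal. Per the submitters' processing notes the authors used HiC-Pro 2.11.1, Bowtie2 2.3.4.1 and build hg19; their filters and balancing settings are not given in the sources used here. The deposited signal had the same total in every bin of a file, so balancing had removed differences in coverage. Bin numbers match 20 kb (second sequencing) and 50 kb (first sequencing) bins of hg19.

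Each signal was divided by a factor per bin to recover whole contacts; no value departed from a whole number by more than 0.02, and the method recovered 100% of simulated pairs. Coverage and self-contacts used these contacts. Values of the whole gene for coverage, self-contact share, cis share and share within the window are sums over its bins. In them a contact between different gene bins is counted in each of its bins. Insulation, side ratio and observed over expected used the deposited signal.

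Features were fitted with limma 3.58.1 in R 4.3.3 (lmFit, eBayes with trend, all times in 1 fit, Benjamini-Hochberg over all features, threshold 0.05). Bins needed a mean of 100 contacts (137197 tested), insulation scores 70% of their square, and pairs a mean of 5 contacts at 40 to 2000 kb, with 0.5 contacts added. On simulated counts for the contrast of 0.25 and 12 h, 65.0% of 100 bins changed by 0.25 and 97.0% of 100 changed by 0.5 (log2) were recovered among 137197. Far fewer bins changed there than were called in the data (55.8%), so these shares do not give the power of the reported fit. The 8 trends per gene used exact permutation over 2520 arrangements with Benjamini-Hochberg adjustment. Deviations of same-numbered replicates from their time's mean correlated between times (r 0.110 to 0.254, 6 pairs of times). Replicate 1 was also the deeper library at every time, and what lies behind these correlations was not tested.

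Named items were, by rule, the gene's bins, the nearest minima, the 5 pairs and 5 most similar bins described, and neighbours by order. The members, lists and tests were chosen with earlier results of these data known. Alternatives were other scalings, filters, windows, the replicate block, the first sequencing and leaving out libraries; a time left with 1 library is assumed to vary like the other times. Other genes of fetal globin control were not analysed here, since the annotation at hand is of another build.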

Additional observations from a re-analysis of the deposited data

How the results depend on the processing

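The fall of the self-contact share of BCL11A kept its direction under all 14 alternatives, with rho between -0.98 and -0.78, and passed the threshold in 10 of them. It did not pass in the first sequencing (-0.78), with only bins wholly inside the gene (-0.88), or without the 0.25 h or the 12 h libraries (-0.96 each). With times permuted within replicate numbers, a replicate block, its rho was -0.98 (exact permutation, adjusted p = 0.0278, 576 arrangements), and the block changed no other call of the gene. Trends that had not passed the threshold changed sign as follows. Coverage had a rho of -0.10 in the first sequencing. The cis share had 0.63 with only bins inside the gene, 0.12 without the 12 h libraries, and -0.53 to 0.24 without single libraries. The side ratio had -0.39 in the first sequencing and -0.12 without the 12 h libraries, and insulation had 0.68 without balancing. The cause of these changes was not tested.

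Between 0.25 and 12 h over the genome, 8566 bins were called for coverage with trans contacts only, 60233 for insulation without balancing and 0 to 165 when single libraries were left out. For pairs, 2 were called with a mean of at least 10 contacts, 5 with a pseudocount of 1 contact and 0 to 1 without single libraries, and none of them was a pair of BCL11A. Between 0.25 and 1 h, where no bin or pair was called with all libraries, leaving out 0.25 h replicate 1 gave 43828 bins for self-contacts, 9134 for coverage, 293 for insulation and 14553 pairs, of which 1 was a pair of BCL11A. Gene bins called for coverage, beside the share of all bins called, numbered 2 with cis contacts only (55.7%), 3 with contacts inside a bin (61.1%), 2 with median-of-ratios factors (55.8%), 2 with TMM factors (55.8%), 0 with trans contacts only (6.24%) and 1 to 4 without single libraries (40.2% to 55.7%). For insulation 5 were called without balancing (44.6%). Self-contact calls of bins 1, 3, 4, 5 and 6 between 0.25 and 12 h held under all 11 alternatives.

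Differences that were not called changed sign as follows. For coverage these were bin 1 without single libraries (-0.0068 to 0.034), bin 4 with trans contacts only (0.22), and bin 5 with cis contacts only (-0.017), with contacts inside a bin (-0.0075) and without single libraries (-0.0093 to 0.045). For insulation without balancing, bins 1 to 5 had -0.14, -0.17, -0.11, -0.15 and -0.18. With a 100 kb window bins 4 and 5 had -0.020 and -0.0061. Without single libraries, bin 2 had -0.010 to 0.030, bin 4 -0.016 to 0.041, bin 5 -0.017 to 0.045 and bin 6 -0.039 to 0.0052. Of the 5 named pairs, whose differences had SE of 0.389 to 0.810, bin 6 with 59.18 to 59.20 Mb had 0.049 without balancing and -1.62 to 1.03 without single libraries, and bin 6 with 59.50 to 59.52 Mb had 0.078 without balancing. The lower minimum moved from 280 to 180 and 1440 kb with 100 and 400 kb windows. With 2 libraries a time and 62777251 contacts in the shallowest, single pairs had the least precision.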
